A study of Homo sapiens with 3 samples.

Results

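HyperTRIBE marks the RNAs that a protein touches. The protein is fused to the catalytic domain of ADAR, an enzyme that turns adenosine into inosine, and inosine is read as G after sequencing. DDX41 is a DEAD-box helicase that has been found with the spliceosome and is mutated in inherited and acquired myeloid neoplasms. Introns are the parts of a transcript that the spliceosome removes, so reads from introns come mostly from RNA that is not yet spliced, from introns that stay in the transcript, or from other RNAs made from the same stretch of DNA.

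The sites described here are the A-to-G positions that the deposited lists annotate to an intron and to nothing else. They number 930 of the 16820 listed positions, and the other 15890 have at least 1 exon entry, among them 78 that carry entries of both kinds. The data are 3 libraries of THP-1, a human monocytic leukemia line, each transduced with a pGK-GFP retrovirus made in 293T cells, kept in RPMI medium with 10% FCS and harvested as total RNA on day 7. The transgenes were none (empty), the ADAR catalytic domain (ADARcd) and a fusion of DDX41 with it (DDX41-ADARcd), with 1 library for each. The 3 lists compare ADARcd with empty, DDX41-ADARcd with empty and DDX41-ADARcd with ADARcd.

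With 1 library in each group no difference between conditions can be tested, and each test below compares the reads of 2 libraries. A position is listed where the library named first has an edited read and the control has 10 or more reads with 0 edited. The level of a site is the percent of its reads that carry the edited base. Of 18 monocytic marker genes 12 have a listed position, and of 7 markers of other cells the samples could hold, 0 have one. SPI1, AZU1 and PRTN3 are the 3 monocytic markers with an intron site.

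Sequences are shown for sites that had 2 to 4 edited reads, among the better supported intron sites with transcript sequence, since they show what lies at such positions. They are read 5′ to 3′ on the strand of the listed gene, from GENCODE 29 transcripts on GRCh38, with the edited base in capitals. The first group lies in introns of the named gene and in an exon of another gene on the opposite strand, so each sequence is the reverse complement of that other transcript.

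RPS29, opposite RN7SL1, chr14:49586802-49586822, minus strand: cgatcccactActgatcagca
RPS29, opposite RN7SL1, chr14:49586780-49586800, minus strand: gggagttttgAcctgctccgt
RPS29, opposite RN7SL1, chr14:49586795-49586815, minus strand: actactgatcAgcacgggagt
LOC101929516, opposite PABPC4, chr1:39569624-39569644, plus strand: tcacaaagccAaagcctttgg
PPIE, opposite BMP8B, chr1:39759769-39759789, plus strand: aagcaggaagAcaagggaaga
C5orf66, opposite H2AFY, chr5:135334649-135334669, plus strand: gacaggtaaaAgacgctgttc

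The second group was listed for DDX41-ADARcd against ADARcd and lies in an intron by the deposited annotation, but in an exon of the same gene and strand in GENCODE.

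ST3GAL3, chr1:43916623-43916643, plus strand: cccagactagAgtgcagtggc
TAF1D, chr11:93735596-93735616, minus strand: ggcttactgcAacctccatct
RPL7L1, chr6:42886831-42886851, plus strand: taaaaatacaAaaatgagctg

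By GENCODE 29, not all of these sites are free of annotated exons, where an exon of any transcript was counted. Of the 930 sites, 310 lie in an annotated exon on the opposite strand only, 135 in an exon on their own strand and 485 in no annotated exon. All 445 positions with transcript sequence have an A on the listed strand. The named gene was found in GENCODE for 828 sites (89.0%), 822 of these lie inside it and all 828 carry its strand. The sites fall in 284 genes on 23 chromosomes.

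Intron sites made up 119 of 6413 sites (1.86%, exact 95% interval 1.54 to 2.22) in the list of ADARcd against empty. They made up 93 of 3516 (2.65%, 2.14 to 3.23) for DDX41-ADARcd against empty, and 811 of 10407 (7.79%, 7.28 to 8.32) for DDX41-ADARcd against ADARcd. Among sites covered by 20 or more reads in each library the last share was 3.60%, and with introns by GENCODE the shares were 0.45%, 1.31% and 5.15%. The larger share in the list against ADARcd came with a different kind of site. In ADARcd against empty, 99 of 119 intron sites (83.2%) lay in an opposite-strand exon and 16 (13.4%) in short stretches of HFM1 and SLCO5A1. The remaining 4 sites comprise 3 in a same-strand exon and 1 in an intron of TBCE. In DDX41-ADARcd against empty the counts were 55 (59.1%) in an opposite-strand exon, 32 (34.4%) in the HFM1 and SLCO5A1 stretches, 2 in a same-strand exon and 4 in no exon, in TBCE and TRIT1. Against ADARcd, 437 of 811 sites (53.9%) lay in no exon outside those stretches, in 104 genes. There 211 (26.0%) lay in an opposite-strand exon, 132 (16.3%) in a same-strand exon and 31 (3.82%) in the stretches.

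**Figure D1:**
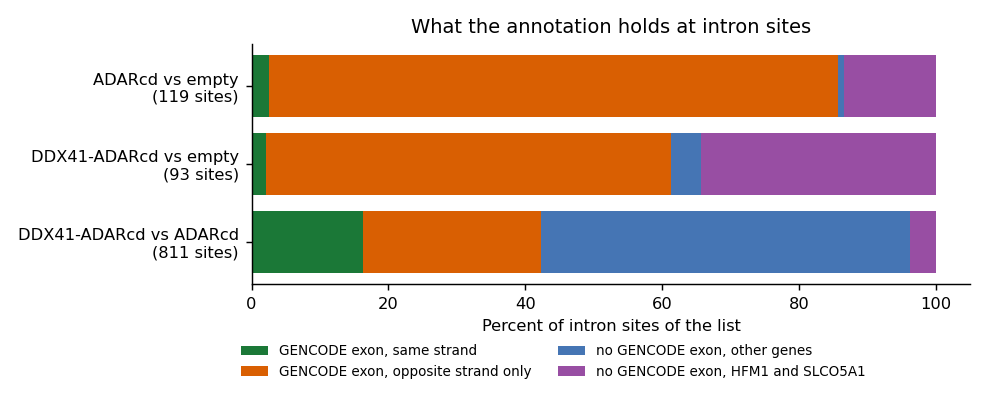
Percent of the intron sites of each list (x axis) by what GENCODE 29 holds at the position, for the 3 lists on the y axis. Opposite-strand exons make up 83.2% and 59.1% in the lists against empty, and positions without an exon outside HFM1 and SLCO5A1 make up 53.9% in the list against ADARcd.

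The libraries differ in reads at these positions. At intron sites the median was 219 reads in ADARcd against 19 in empty, 283 in DDX41-ADARcd against 84 in empty, and 10 in DDX41-ADARcd against 17 in ADARcd. The median ratio of reads was 8.27 (order-statistic 95% interval 7.32 to 9.19), 3.61 (3.03 to 4.87) and 0.59 (0.57 to 0.61) in that order, beside 8.78, 5.87 and 0.67 at exon sites. Positions without an exon outside the stretches had a median of 14 reads in ADARcd, near the least that a control needs for listing. How far this requirement sets the number of intron sites in each list was not tested.

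**Figure D2:**
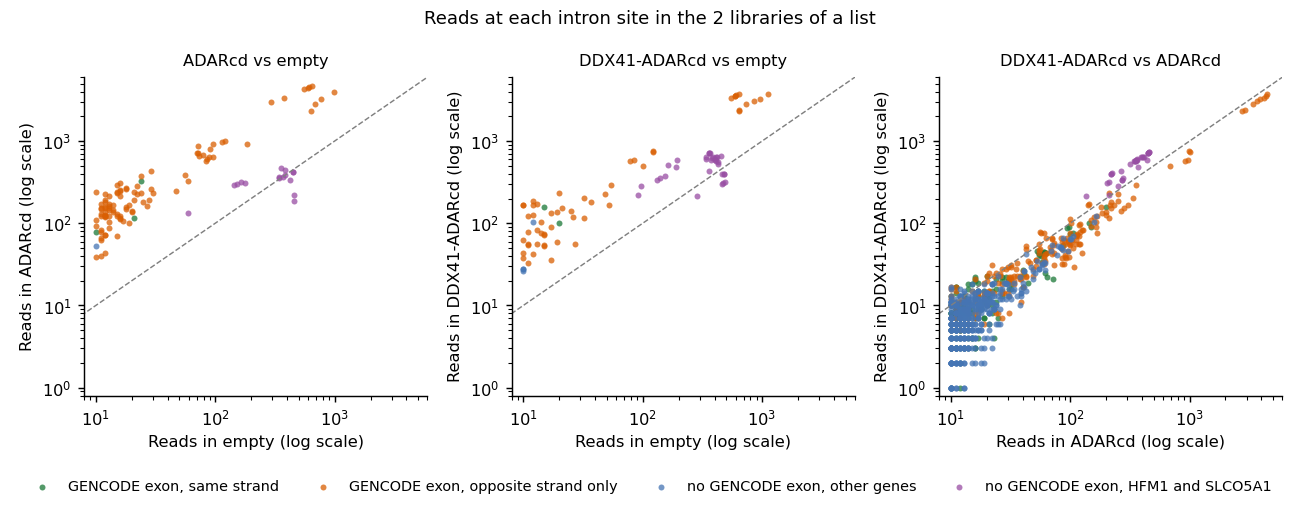
Reads at each intron site in the control (x axis, log scale) and in the library named first (y axis, log scale), 1 panel for each list, coloured by annotation. The dashed line marks equal reads. In the left panel, sites in opposite-strand exons lie above the line with a median ratio of 8.90, and the HFM1 and SLCO5A1 sites lie around it with a median ratio of 1.04.

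No intron site passed Fisher's exact test (two-sided, at least 10 reads in each library, Benjamini-Hochberg over all sites of the list, threshold 0.05). In ADARcd against empty 0 of 119 intron sites were called, beside 0.203% of all 6412 tested sites, and 1 had an unadjusted p under 0.05. In DDX41-ADARcd against empty it was 0 of 93 beside 0% of 3512, with 0 at an unadjusted p under 0.05. In DDX41-ADARcd against ADARcd it was 0 of 446 beside 0% of 8827, with 4 at an unadjusted p under 0.05. Adding the positions listed for both transduced libraries gave 0 of 460 beside 0.282% of 9227, and the same number of 4 unadjusted. In these 4 comparisons the intron sites with an unadjusted p under 0.05 were 0.840%, 0%, 0.897% and 0.870% of those tested. Over all tested sites the shares were 0.546%, 0.0854%, 0.442% and 0.856%. Bonferroni adjustment also called 0 in each. At the median depths of intron sites, an unadjusted p under 0.05 needs 38 edited of 219 reads (17.4%), 13 of 283 (4.59%) and 3 of 10 (30.0%) in the 3 lists. Smaller differences could not reach that p at this depth. A call rests on the adjusted p, so differences larger than these can be missed as well.

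Single edited reads carried most intron sites. They made up 101 of 119 (84.9%, 77.2 to 90.8), 71 of 93 (76.3%, 66.4 to 84.5) and 633 of 811 (78.1%, 75 to 80.9) in the 3 lists. Exon sites had 74.6%, 81.6% and 84.4%. The highest number of edited reads at an intron site was 5, 4 and 4. Exon sites reached 816, 19 and 10.

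Sites inside opposite-strand exons sit in hosts whose introns overlap an exon of a gene on the other strand. A change listed as A-to-G on the host's strand reads as T-to-C on that other transcript. Whether the libraries keep the strand of the RNA is not stated in the labels, and the strand of the reads cannot be told apart. Of these sites 41 of 99, 23 of 55 and 84 of 211 lay opposite a coding exon, and 41, 19 and 106 opposite a 3′ UTR.

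RPS29, a ribosomal protein gene, had 10 and 11 intron sites in the lists against empty and 8 in the list against ADARcd. They lie in chr14:49586617-49586840, opposite RN7SL1, the 7SL RNA of the signal recognition particle that targets nascent proteins to the endoplasmic reticulum. Over the RPS29 positions listed with each library, reads ran from 295 to 1129 in empty, from 2324 to 4722 in ADARcd and from 2298 to 3784 in DDX41-ADARcd. These were the deepest intron sites. At position 49586812, shown above, 4 of 4251 reads were edited in ADARcd (0.094%, 0.026 to 0.24), 2 of 3391 in DDX41-ADARcd (0.059%, 0.0071 to 0.21) and 0 of 551 in empty, which allows up to 0.54%. At position 49586790 it was 3 of 4722 reads in ADARcd (0.064%), 2 of 3784 in DDX41-ADARcd (0.053%) and 0 of 645 in empty. The intervals of the transduced libraries overlap at both positions. Over the RPS29 positions, reads with a base other than A or G were 9 of 11704 (0.077%) in empty, 43 of 66460 (0.065%) in ADARcd and 33 of 38889 (0.085%) in DDX41-ADARcd. Edited reads were 15 of the 66460 in ADARcd (0.023%) and 18 of the 38889 in DDX41-ADARcd (0.046%). Summed over the positions they were fewer than the reads with other bases, which count 2 bases together. Position 49586812 alone held 11 of the 43 reads with other bases in ADARcd and 22 of the 33 in DDX41-ADARcd. In DDX41-ADARcd the order of the 2 sums rests on that position. The libraries cannot be compared by the 2 shares of edited reads, which listing sets in part. All 12 RPS29 positions of DDX41-ADARcd have an edited read by listing. ADARcd had edited reads at 10 of its 18 positions, and the list against ADARcd requires 0 there.

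PPIE, a cyclophilin found with the spliceosome, led the list of ADARcd against empty with 12 sites, all opposite BMP8B, a growth factor gene, and 11 of them opposite its 3′ UTR. Its reads at these 12 sites ran from 130 to 244 in ADARcd and from 11 to 47 in empty, and levels ran from 0.41% to 1.05%. DDX41-ADARcd against empty had 8 PPIE sites, with levels from 0.43% to 1.28%. The site shown above had 2 of 191 reads edited in ADARcd (1.05%, 0.13 to 3.73) and 0 of 28 in empty, which allows up to 10.7%.

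FAM69A had 10 and 4 sites in the lists against empty, opposite RPL5, a protein of the large ribosomal subunit. All 14 had 1 edited read each in the library named first. Levels ran from 0.10% to 0.27% in ADARcd and from 0.13% to 0.18% in DDX41-ADARcd. Reads with other bases at the FAM69A positions were 4 of 11700 (0.034%) in ADARcd, 2 of 2675 (0.075%) in DDX41-ADARcd and 0 of 1371 in empty. LOC101929516, opposite PABPC4, a cytoplasmic poly(A)-binding protein, had 7 and 3 sites, and 3 of the 7 had 2 edited reads. LOC105369438, opposite the fucosyltransferase gene FUT4, had 7 sites in ADARcd against empty with levels from 0.77% to 1.43%.

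Among the other genes of this kind were TRIM59-IFT80, opposite the condensin subunit SMC4 (7 and 3 sites), and C5orf66, opposite the histone variant gene H2AFY (7 and 3 sites). SYN3, a synapsin gene, lies opposite TIMP3, an inhibitor of metalloproteinases, and had 7 and 4 sites in the lists against empty and 14 in the list against ADARcd. At those 14 SYN3 sites reads ran from 31 to 235 in DDX41-ADARcd and from 32 to 221 in ADARcd, and levels from 0.43% to 3.23%. The median ratio of reads at SYN3 was 1.06, beside 0.69 over all intron sites in opposite-strand exons. In the list against ADARcd, sites in opposite-strand exons lay in 115 listed genes.

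HFM1, a meiotic DNA helicase, had 11, 24 and 24 sites in the 3 lists, all within chr1:91387290-91387530, a stretch of 241 bases. The stretch lies 1456 to 1696 bases from the nearest HFM1 exon and overlaps no GENCODE exon on either strand, so no sequence is printed. Unlike the opposite-strand sites, its reads were at a like number in ADARcd and empty. Over the positions listed with each library the HFM1 stretch had a median of 406 reads in empty (284 to 489), 360 in ADARcd (135 to 464) and 588 in DDX41-ADARcd (213 to 731). DDX41-ADARcd was the highest, and the ranges of the 3 libraries overlap.

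SLCO5A1, of the organic anion transporter family, had 5, 8 and 7 sites within chr8:69690135-69690269, which is 7792 to 7926 bases from its nearest exon. Its median reads were 143 in empty (59 to 194), 286.5 in ADARcd (135 to 439) and 351 in DDX41-ADARcd (221 to 587). Over HFM1 and SLCO5A1 together, the median ratio of ADARcd to empty was 1.04 (0.94 to 1.93), and that of DDX41-ADARcd to empty was 1.56 (1.30 to 1.99). The ratio of DDX41-ADARcd to ADARcd was 1.60 (1.57 to 1.64). At exon sites these ratios were 8.78, 5.87 and 0.67, so the stretches had relatively more reads in empty and in DDX41-ADARcd than listed exon positions did.

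Mismatches other than A-to-G were frequent in both stretches in each library, empty included. At the HFM1 positions, reads with a base other than A or G were 117 of 10920 in empty (1.07%, 0.89 to 1.28), 170 of 12121 in ADARcd (1.4%, 1.20 to 1.63) and 327 of 17733 in DDX41-ADARcd (1.84%, 1.65 to 2.05). Edited reads at HFM1 were 18 of the 12121 in ADARcd (0.15%) and 57 of the 17733 in DDX41-ADARcd (0.32%), fewer than the other mismatches. Listing sets these shares of edited reads in part, so the libraries cannot be compared by them. All 32 HFM1 positions of DDX41-ADARcd have an edited read by listing. ADARcd had edited reads at 11 of its 35 positions, and the list against ADARcd requires 0 there. At SLCO5A1 the other bases made up 11 of 1541 reads in empty (0.71%), 20 of 3445 in ADARcd (0.58%) and 41 of 3472 in DDX41-ADARcd (1.18%). Exon sites had 0.097% other bases in both libraries of the list of ADARcd against empty. The part of this difference in the listing of HFM1 and SLCO5A1 was not tested.

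HFM1 held the intron sites with most edited reads. At position 91387364, 5 of 363 reads were edited in ADARcd (1.38%, 0.45 to 3.18), 3 of 585 in DDX41-ADARcd (0.51%, 0.11 to 1.49) and 0 of 373 in empty, which allows up to 0.80%. This is the site with an unadjusted p under 0.05 in ADARcd against empty (Fisher's exact p = 0.0288, adjusted p = 1). At the same position of HFM1, 11 reads of ADARcd and 8 of empty carried other bases. At position 91387462, 4 of 532 reads were edited in DDX41-ADARcd (0.75%, 0.21 to 1.91), with 0 of 426 in empty and 0 of 318 in ADARcd.

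Several other sites ranked high by edited reads or by level in the lists against empty, each with 1 or 2 edited reads. TAOK3, a kinase gene opposite the ribosomal pseudogene RPS2P5, had 4 sites in ADARcd against empty, the most edited with 2 of 709 reads (0.28%). UBE2Q2P2, opposite the pseudogene RPL9P9, had 2 of 261 reads edited at 1 site (0.77%). In DDX41-ADARcd against empty, TRIM59-IFT80 had 1 of 56 reads edited at position 160431126 (1.79%) and C5orf66 2 of 117 at the position shown above (1.71%, 0.21 to 6.04). HIST1H2BK, a histone gene opposite HIST1H4I, had 2 of 166 there (1.2%, 0.15 to 4.28). KCTD2 had 1 of 101 (0.99%) there and 1 of 141 in ADARcd (0.71%), at different positions, and KDM4A-AS1 had 1 of 115 in ADARcd (0.87%).

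Positions listed for both transduced libraries against empty numbered 14, which is 11.8% of the intron sites of ADARcd and 15.1% of those of DDX41-ADARcd. Over all sites the shares were 6.27% and 11.4%. They lie in 3 places: 8 in the HFM1 stretch, 4 in RPS29 and 2 in SLCO5A1. Levels ran from 0.022% to 1.38% in ADARcd and from 0.053% to 0.67% in DDX41-ADARcd. DDX41-ADARcd was higher at 6 and lower at 8, and the smallest of the 14 Fisher's exact p values between the transduced libraries was 0.272. Both lists use the same empty library, so their overlap is not independent.

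**Figure D3:**
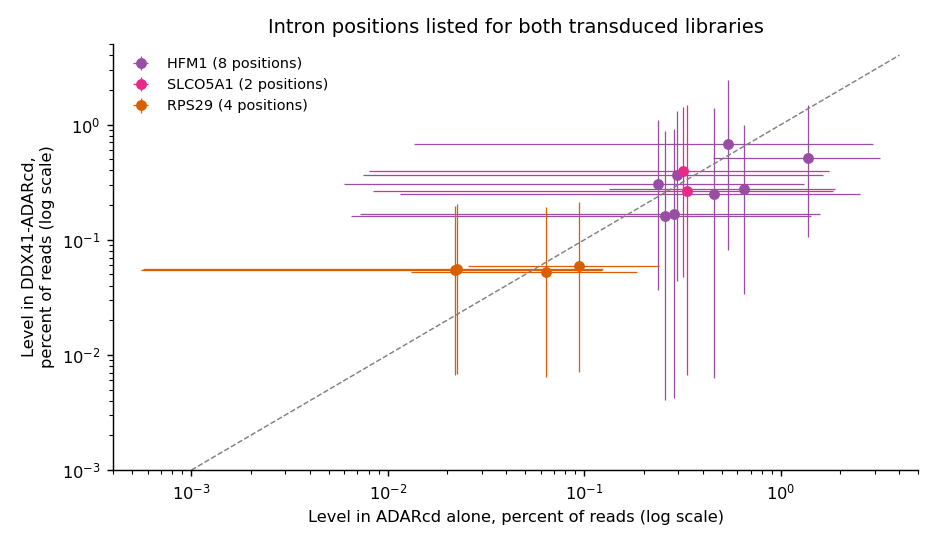
Level in ADARcd alone (x axis) and in DDX41-ADARcd (y axis), in percent of reads on log scales, at the 14 intron positions listed for both libraries against empty. Bars are exact 95% intervals of counting error, and the dashed line marks equal levels. The RPS29 positions lie below 0.1% in both libraries, and the intervals of all 14 positions reach the line or overlap between libraries.

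Of the 93 intron sites of DDX41-ADARcd against empty, 79 (84.9%) are also in its list against ADARcd, and they are 9.74% of the 811 there. Over all sites the shares were 88.6% and 29.9%. The DDX41-ADARcd reads are the same in both lists at these 79 positions. Their median reads were 32 in empty, 216 in ADARcd and 180 in DDX41-ADARcd. By the way the lists are made, 0 positions are shared between ADARcd against empty and DDX41-ADARcd against ADARcd.

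The list of DDX41-ADARcd against ADARcd holds most of the sites in no exon outside HFM1 and SLCO5A1. There, positions in no exon lay a median of 1625 bases from the nearest exon of their gene (quartiles 599 and 3498, n = 435), and 266 (61.1%) lay more than 1 kilobase away. At these positions in no exon the median depth was 8 reads for DDX41-ADARcd, beside 14 for ADARcd. The median level was 16.7% (14.3 to 16.7), and the median limit that 0 edited reads allowed in ADARcd was 21.4%. The level in DDX41-ADARcd was above that limit at 158 of the 437 positions and at 1006 of the 9596 exon sites of the list. At so few reads a single edited read can pass the limit. Over all 811 sites the median level was 11.1% (10 to 12), beside 3.45% at exon sites with 32 reads. With at least 20 reads in both libraries it was 1.90% at 232 intron sites (1.64 to 2.33) and 1.61% at 6209 exon sites (1.56 to 1.69). A site with 1 edited read has the higher level the fewer reads it has. In DDX41-ADARcd 365 of the 811 (45.0%) had fewer than 10 reads and were not tested.

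NFYC, a subunit of the CCAAT-binding factor NF-Y, had most intron sites, 42, of which 10 had 2 or more edited reads. Its reads ran from 1 to 22 in DDX41-ADARcd (median 9) and from 10 to 38 in ADARcd (median 14). Summed over its 42 positions, 56 of 386 reads were edited in DDX41-ADARcd and 0 of 651 in ADARcd, where 0 is a condition of listing. Reads with other bases were 0 in both libraries at NFYC, which allows up to 0.95% and 0.57% by exact intervals. The deepest-edited NFYC site, at position 40760073, had 4 of 13 reads edited in DDX41-ADARcd (30.8%, 9.09 to 61.4) and 0 of 12 in ADARcd.

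TRIT1, a tRNA-modifying enzyme, had 41 sites, and CAP1, a regulator of actin, had 31. TRIT1 was covered more deeply, by 6 to 124 reads in DDX41-ADARcd (median 31) beside 12 to 164 in ADARcd (median 58). At TRIT1, 51 of 1495 reads were edited in DDX41-ADARcd, and reads with other bases were 0 of 1495 there and 5 of 2408 (0.21%) in ADARcd. The TRIT1 position 39868868 had 3 of 25 reads edited (12%, 2.55 to 31.2) and 0 of 51 in ADARcd. CAP1 had 36 of 438 reads edited over its positions, and at most 2 at 1 position.

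LYST, a regulator of lysosomal trafficking, had 27 sites over 199586 bases, and its median depth was 5 reads for DDX41-ADARcd (1 to 22) beside 13 for ADARcd (10 to 64). Of these 11 had 2 edited reads. A run of 7 LYST positions fell within 99 bases, with 3 to 8 reads in DDX41-ADARcd and 12 edited reads in all. MYB, a transcription factor of blood progenitors, had 19 sites within 4621 bases, 925 to 5545 bases from its nearest exon. The MYB positions had 2 to 11 reads in DDX41-ADARcd (median 5) beside 10 to 22 in ADARcd (median 12), and 23 of 115 reads were edited. Levels at MYB ran from 10% to 50%, and 4 of the 19 sites had 2 edited reads.

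The other genes among the 10 with most sites were HFM1, SYN3, ST3GAL3, a sialyltransferase (20), SMAP2, a GTPase-activating protein (16), and H2AFV, a histone H2A.Z gene (16). ST3GAL3 had 2 or more edited reads at 2 of 20 sites and HFM1 at 12 of 24. SMAP2 had them at 6 of 16 and H2AFV at 4 of 16. The 16 H2AFV sites fell within 2513 bases, among them runs of 8 and 7 sites within 220 and 212 bases. Together the 10 leading genes held 250 of the 811 sites (30.8%), and 149 genes held 1 site each.

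**Figure D4:**
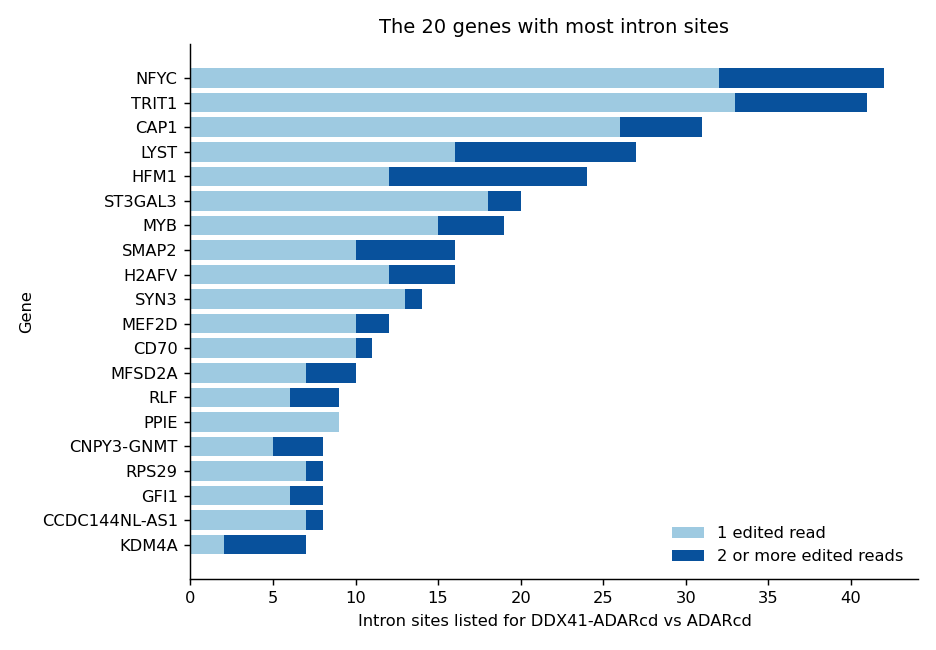
Number of intron sites listed for DDX41-ADARcd against ADARcd (x axis) in the 20 genes with most sites (y axis), split by edited reads in DDX41-ADARcd. NFYC has 42 sites and 10 with 2 or more edited reads, and HFM1 has 24 and 12.

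Many of these genes lie close together. Chromosome 1 held 353 of the 811 sites (43.5%), beside 15% of the exon sites of the same list. In ADARcd against empty it held 43 of 119 intron sites (36.1%), beside 17.7% of exon sites. In DDX41-ADARcd against empty it held 47 of 93 (50.5%), beside 17.1%. A few places made up most of these sites in the lists against empty. Of the 43, PPIE held 12, HFM1 11, FAM69A 10 and LOC101929516 7. Of the 47, HFM1 held 24, PPIE 8, FAM69A 4 and LOC101929516 3. Between the start of TRIT1 and the end of NFYC, chr1:39838110-40771603, lay 156 intron sites (19.2%) in 11 genes, of which 150 lie in no exon. The same interval held 1.77% of exon sites. This interval was chosen after its values were seen, so the shares are a description. The median depth of its 156 sites was 11 reads for DDX41-ADARcd beside 17 for ADARcd, and their median level was 10%. In ADARcd against empty 0 intron sites fell there, and in DDX41-ADARcd against empty 1 did, a TRIT1 position with 104 and 12 reads. These counts depend on where the interval begins. PPIE, with 12 and 8 sites in the lists against empty, and LOC101929516, with 7 and 3, lie just before its start.

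The 4 sites with an unadjusted p under 0.05 in DDX41-ADARcd against ADARcd are on chromosome 1, and 3 of them in this interval. They are 0.897% of the tested intron sites, beside 0.442% of all tested sites. With the shared positions added, the shares are 0.870% and 0.856%. By Fisher's exact test they are ST3GAL3 43916633 (4 of 14 reads against 0 of 21, p = 0.0191) and TRIT1 39868868 (3 of 25 against 0 of 51, p = 0.0327). By the same exact test the others are NFYC 40695092 (3 of 10 against 0 of 18, p = 0.0366) and TRIT1 39866269 (3 of 50 against 0 of 84, p = 0.04999). Each had an adjusted p of 0.541 over the sites of that list by Fisher's exact test with Benjamini-Hochberg adjustment, and 0.560 with the shared positions added, and none is called. Sites with 4 edited reads in this list numbered 6, of which 2 are in HFM1. The others are ST3GAL3 and NFYC, given above, and CHTOP and TAF1D, each with 4 of 8 reads (50%, 15.7 to 84.3) against 0 of 14 and 0 of 10.

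Among sites covered by 20 or more reads in each library, the highest level was that of TRIT1 39868868, given above. Next came LENG8 and TTI2 with 2 of 21 reads each (9.52%, 1.17 to 30.4), and then ACBD3-AS1 and LOC101927078 with 2 of 23 each (8.70%, 1.07 to 28.0). EMG1 had 2 of 24 (8.33%), LOC101927100 2 of 25 (8%) and CAP1 2 of 26 (7.69%). The intervals of these sites overlap, and each had 0 edited reads in ADARcd.

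At 5 to 19 reads, intron sites in no exon or in a same-strand exon had 2 or more edited reads at a higher share than exon sites. With 5 to 19 reads in DDX41-ADARcd, 80 of 306 sites in no exon had 2 or more edited reads (26.1%, 21.3 to 31.4), and so had 23 of 79 sites in a same-strand exon (29.1%, 19.4 to 40.4). Opposite-strand sites had 11 of 70 (15.7%, 8.11 to 26.4) and exon sites 470 of 3021 (15.6%, 14.3 to 16.9). Median depths were 9, 9, 11 and 12 reads. The range of 5 to 19 reads joins those of 5 to 9 and 10 to 19 and was not set in advance, so these shares are a description. Many of these sites share a gene, 85 genes for the 306 sites in no exon, so the intervals, which count each site as independent, are too narrow. Below 5 reads and from 20 to 49 reads the intervals of all 4 kinds overlap. From 20 to 49 reads, sites in no exon were at 14.3% (3 of 21), same-strand intron sites at 20% and exon sites at 15.3%. For same-strand intron sites the intervals also overlap those of exon sites at 5 to 9 and at 10 to 19 reads taken apart.

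**Figure D5:**
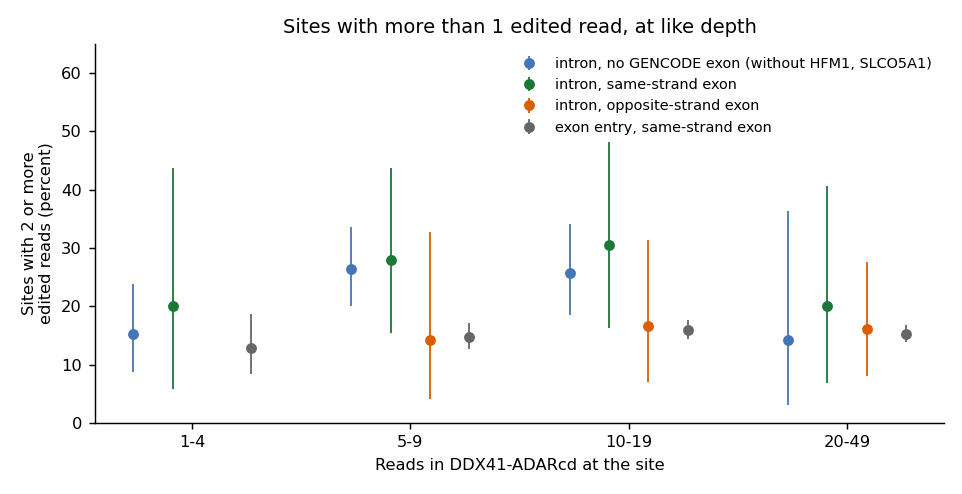
Percent of sites with 2 or more edited reads in DDX41-ADARcd (y axis) by reads at the site (x axis), in the list against ADARcd, with exact 95% intervals. Sets under 20 sites are left out. With 10 to 19 reads, sites in no exon are at 25.8%, same-strand intron sites at 30.6% and exon sites at 15.9%.

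The 132 sites in a same-strand exon lie in an exon of some GENCODE transcript. Whether other GENCODE transcripts have an intron there was not checked. For 127 the exon belongs to the named gene, and 55 lie in a 3′ UTR, 55 in a non-coding exon, 14 in a coding exon and 8 in a 5′ UTR. Of the 132, 52 lie in a transcript that GENCODE types as a retained intron, and 30 in no transcript of another type. RPL7L1, a ribosomal protein paralog, had 6 such sites within 51 bases. There reads ran from 41 to 45 in DDX41-ADARcd and from 55 to 63 in ADARcd. The RPL7L1 site shown above had 3 of 45 reads edited (6.67%, 1.4 to 18.3) and 0 of 60 in ADARcd.

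Sequence around the same-strand sites recurs between genes. The 12 letters AAAATACAAAAA, searched on both strands, were the most widely shared among the 101 windows of 201 bases that lie wholly in an exon, and were chosen for that. They occur in the Alu family, a common repeat of human introns and 3′ UTRs. They were in 25 windows (24.8%) and 11 of 62 genes (17.7%), and the RPL7L1 sequence above holds them. The windows of exon sites of the same list held them at 266 of 5039 (5.28%) and in 124 of 2403 genes (5.16%). Windows of opposite-strand sites held them at 3 of 140 (2.14%). The letters were chosen in the same-strand intron windows, so a higher share in that set follows in part from the choice. Windows of close sites overlap and were counted separately. With 2 or more edited reads the share was 4 of 24 same-strand intron windows (16.7%, 4.74 to 37.4) and 51 of 841 exon windows (6.06%, 4.55 to 7.90). For sites in no exon there is no sequence here, so the letters were not searched.

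ADAR domains are known to prefer a G after the edited A and to avoid a G before it. Exon sites that lie in a same-strand exon and had 5 or more edited reads numbered 258 in ADARcd against empty. G followed the A at 55.0% of them, G preceded it at 4.26% and T preceded it at 44.6%. In DDX41-ADARcd against empty there were 30 such sites, with 46.7%, 10% and 33.3% in the same order. Intron sites had G after the A at 37 of 102 (36.3%, 27.0 to 46.4) in ADARcd against empty, 22 of 57 (38.6%, 26.0 to 52.4) in DDX41-ADARcd against empty and 131 of 343 (38.2%, 33.0 to 43.6) in DDX41-ADARcd against ADARcd. Other A within 100 bases of these sites had G after them at 24.8%, 25.6% and 28.4%. Exon sites were at 40.1%, 36.5% and 37.1%. G preceded the A at 24.5%, 35.1% and 24.2% of intron sites, beside 21.6%, 21.8% and 22.5% of other A within 100 bases. Over all intron sites of a list, G before the A was thus not rarer than at other A nearby. In the list against ADARcd the kinds of intron site differed in this, as given below. Exon sites had G before the A at 25.3%, 29.6% and 28.6%. T preceded the A at 11.8%, 22.8% and 16.0% of intron sites, beside 17.8%, 17.0% and 16.4% of other A.

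Among intron sites with 2 or more edited reads in DDX41-ADARcd against ADARcd, G followed the A at 33 of 65 (50.8%, 38.1 to 63.4). It did so at 36.1% of exon sites with 2 or more edited reads (33.7 to 38.6). G before the A was at 14 of 65 (21.5%, 12.3 to 33.5), beside 21.8% of other A nearby and 26.8% of exon sites of the same list with 2 or more edited reads (24.6 to 29.2). In the lists against empty only 15 and 10 intron sites with sequence had 2 or more edited reads, and G followed at 2 and 6 of them. In same-strand intron sites of the list against ADARcd, G preceded the A at 13.6% of 132 (8.29 to 20.7), beside 24.7% of other A within 100 bases. In opposite-strand sites it did so at 30.8% of 211 (24.6 to 37.5), beside 21.2%.

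Many intron sites had a close neighbour. Another intron site of the same list was within 100 bases for 73 of 119 (61.3%), 58 of 93 (62.4%) and 357 of 811 (44.0%). In the list against ADARcd it was 31 of 31 in the stretches, 240 of 437 (54.9%, 50.1 to 59.7) in no exon, 42 of 132 (31.8%) in a same-strand exon and 42 of 211 (19.9%) in an opposite-strand exon. Exon sites had an exon site within 100 bases at 63.5%, 52.8% and 30.9% in the 3 lists, which is above the intron share in the first. Sites within a read's length can share reads, and how many do is not given by counts per position.

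Few members of pathways near DDX41 had intron sites. The lists of genes are not complete, and PPIE, described above, is in none of them. In the lists against empty RPS29 was the only member of the 10 gene lists with an intron site. In DDX41-ADARcd against ADARcd, ribosomal protein genes had 15 of the 811 intron sites (1.85%), which are RPS29 with 8, RPL7L1 with 6 and RPL31 with 1, beside 4.55% of exon sites. Of the HNRNP genes, whose proteins bind nascent RNA, HNRNPH1 had 3 intron sites and HNRNPU had 1. Hosts of snoRNAs, which guide RNA modification and are cut from introns, had 5 (0.62%, beside 1.29%), with 2 in TAF1D and 1 each in GAS5, TOMM20 and ZFAS1.

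Spliceosome genes had 5 intron sites (0.62%, beside 0.93% of exon sites), 3 in LUC7L2, a U1-associated splicing factor, and 2 in SNRNP70, a core protein of U1. Genes of SR proteins, which promote splicing, had 3, of which 2 in TRA2B and 1 in SRSF7. DEAD-box and DEAH-box helicase genes had 2, in DDX17 and DDX5, each with other RNA-processing roles. The myeloid leukemia genes had the 3 sites of LUC7L2. Nuclear long non-coding RNAs, nucleic acid sensing genes and DNA damage genes had 0, beside 109, 26 and 70 exon sites. A gene without an intron cannot have an intron site. Which members lack introns, among the long non-coding RNAs above all, was not checked, so no lack is read from these counts. No intron site of any of these lists was called, and 0 had an unadjusted p under 0.05.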

How the data were processed

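RNA of 3 THP-1 libraries was sequenced, and 3 lists of A-to-G sites were deposited. Their values are raw counts that the authors deposited, per the file headers: reads with each base and in total at 1 position in 2 libraries. The submitters' processing notes name CASAVA 1.4, FastQC 0.11.7, STAR 2.5 and mm10. No label or header names the site caller or its filters. The positions fit human GRCh38, since all 445 intron positions with GENCODE 29 sequence are A, so that build is used. Columns name no library. The library named first in a list was taken as the edited one, and totals of the same library were equal between lists at 14 of 14 (empty) and 79 of 79 (DDX41-ADARcd) shared intron positions.

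Entries for 1 position were joined. A position was an intron site where each entry was an intron. Two-sided Fisher's exact tests (scipy 1.17.1, checked on simulated data) used sites covered by 10 or more reads in each library, adjusted over all sites of a list. Intervals are exact Clopper-Pearson or order-statistic 95% intervals, and the limit of 0 edited reads is 3 reads of the depth. Both cover counting error only. Groups came from the transgene label, and no replicate exists. Named were the 10 genes with most intron sites, the 10 sites with most edited reads and with the highest level (20 or more reads in both libraries) in each list, sites shared by both transduced libraries, and up to 4 members of each gene list. Positions within HFM1, SLCO5A1, RPS29, PPIE and C5orf66 are given mostly by their ranges. The members and lists were chosen with earlier results of these data known. Alternatives were 20 reads, 2 edited reads, introns by GENCODE, other distances and other adjustments. A gene and a sequence are not reported here.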

Additional observations from a re-analysis of the deposited data

How the results depend on the processing

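No paired analysis was possible because each group has 1 library. Of 78 recomputed descriptive values 34 stayed within the main interval, and all 12 recomputed counts of called sites stayed at 0. Values are given for ADARcd against empty, DDX41-ADARcd against empty and DDX41-ADARcd against ADARcd in this order, and only those that left the main interval; the cause was not tested. With introns by GENCODE, the intron share was 0.45%, 1.31% and 5.15%, the read ratio 1.30, 1.72 and 0.54, sites with a neighbour 82.8%, 89.1% and 57.8%, and the level 14.3% in the last. With at least 2 edited reads, the share was 1.11%, 3.38% and 10.6%, the level 0.94% in the first and 20% in the last, the read ratio 9.23 in the first and 2.82 in the next, and sites with a neighbour 38.9%, 77.3% and 28.1%. The excess of G after the A over other A was 11.5, 13.0 and 9.83 percentage points, and with 2 edited reads it was -8.69, reversed on 15 sites, 34.8 on 10 sites and 23.0. With 20 reads in both libraries, the share was 1.49% and, against ADARcd, 3.60%, the level 0.28%, 0.27% and 1.90%, the read ratio 6.88, 2.73 and 0.71, sites with a neighbour 72.9% and 78.3%, and single-read sites 81.0% in the last. Genes with only intron sites were 2.23% and, in the last, 3.22%. Neighbours within 50 bases were at 49.6% and, in the last, 37.4%, and within 500 bases at 74.8% and 57.6%. Without HFM1 and SLCO5A1, chosen after seeing the data, DDX41-ADARcd against empty had a share of 1.75%, a level of 0.75%, a read ratio of 5.35 and 42.6% with a neighbour. GENCODE introns have no sequence here, so their neighbouring bases were not run.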
